A study of Mus musculus with 56 samples.

Results

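The comparison described here is between colons of WT mice taken 24 h and 6 h after ionizing radiation, a late against an early time point after a dose of 3 Gy. Its members are the 4 arrays titled WT colon 24 h (replicates 1, 2, 3 and 5) and the 4 arrays titled WT colon 6 h (replicates 1, 2, 4 and 5), 8 of the 56 arrays in the series. All mice were of the strain BALB/C, RNA came from whole colon, and each colon array was a different mouse. The other groups used for comparison were WT colon at 0 h (5 mice), colon of Tweak_KO mice at 6 h and 24 h (5 mice each) and WT jejunum at 6 h (5 mice) and 24 h (4 mice). The titles do not say whether colon and jejunum arrays of the same number came from the same mouse. Tweak_KO mice carry a knockout of the TNF family cytokine Tweak, also named Tnfsf12. Age is not given in the labels, nor is the hour of the day of each harvest, nor whether mice labelled 0 h with the 3 Gy treatment had been irradiated.

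Ionizing radiation breaks DNA and activates the p53 protein, which holds cells before division and can lead them to apoptosis. The colon lining is renewed from dividing cells at the base of the crypts, so transcripts of the cell cycle in whole colon come largely from a small compartment of the tissue. Genes used in G2 phase and mitosis are shut down by p53 through a repressor complex that binds their promoters, and genes of DNA replication are driven by E2F factors. Many colon transcripts also cycle over the day under the circadian clock.

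Of 13645 genes tested, 33 passed an adjusted p of 0.05 in limma between 24 h and 6 h, 15 higher at 24 h (0.11% of genes tested) and 18 lower (0.132%). The 8 arrays of this comparison correlated with each other at 0.9904 to 0.9971 (Pearson's r over all probe sets), and their medians lay between 3.17 and 3.21 on the log2 scale. All values below are log2 signals, and the lowest value the colon table holds is 2.28, which is called the floor here. In the main fit, the SE and adjusted p of a colon difference use the spread within all 6 groups. These are 28 arrays, KO and 0 h included. At an unadjusted p under 0.05, 1207 genes were counted. Of the 33 calls, 10 were kept when any single array of the comparison was left out (1700007K13Rik, Cenpa, Ckap2, C1qtnf3, Tert, Pttg1, Arhgef39, Gm1976, Iyd and Apod). In all 33 genes the 4 values at 24 h lay wholly above or wholly below the 4 values at 6 h. Over all genes tested, 388 (2.84%) had all 4 values of 24 h above all 4 of 6 h, and 454 (3.33%) had all below. The goblet cell list had a mean of 11.53 to 11.84 and the colonocyte list 10.51 to 10.75 in the 8 arrays, so markers of colon epithelium were present in every one. Tweak itself shared its probe sets with neighbouring genes. The probe set annotated to Tnfsf12 and Tnfsfm13 averaged 4.19 ± 0.26 in WT at 6 h and 4.26 ± 0.18 at 24 h (SD, n = 4 each). In Tweak_KO colon it averaged 2.49 ± 0.13 and 2.58 ± 0.24 (SD, n = 5 each). The probe set annotated to these genes and Tnfsf13 averaged 7.40 ± 0.21 and 7.32 ± 0.11 in WT. In Tweak_KO colon that probe set averaged 7.81 ± 0.21 and 7.16 ± 0.19, without a loss like that of the first.

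**Figure D1:**
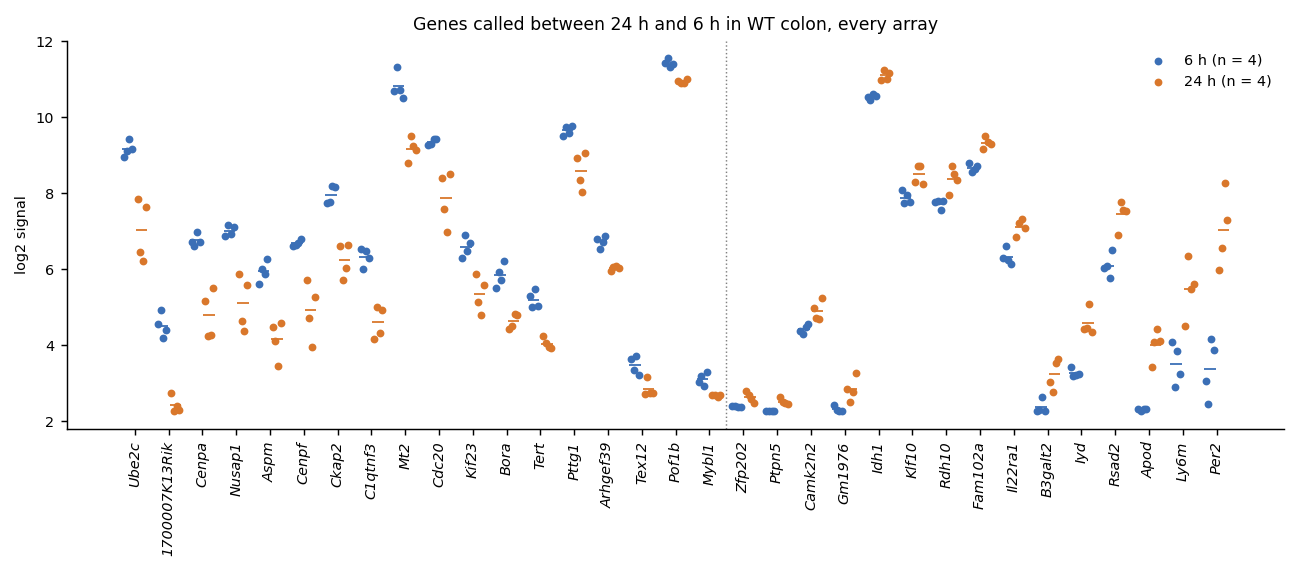
Log2 signal (y axis) of the 33 called genes in each of the 4 arrays of WT colon at 6 h (blue) and the 4 arrays at 24 h (orange), with short lines at the group means. Genes left of the dotted line were lower at 24 h and those right of it higher; the groups do not overlap in any gene, and Per2 has the widest difference.

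Genes of G2 phase and mitosis made up the largest group among the genes that fell. Of the 35 tested members of this list, 8 were called lower, against a background of 0.132%, and 0 higher. The fitted difference was below 0 for all 35, with a median of -1.24 against 0 for all genes tested, and 32 of the 35 had all 4 values of 24 h below all 4 of 6 h, against 3.33% of all genes. The list had 0 calls when only the 8 arrays of this comparison or the 13 WT colon arrays were fitted, with the replicate number as a block, and without replicates 2 and 3 of 24 h together (the last an alternative added after the data were seen); with array weights, by which limma gives less weight to arrays that vary more, it had 17. With 1 array left out the count was 2 without replicate 2 or 5 of 6 h or replicate 2 or 3 of 24 h, 4 without replicate 4 of 6 h and 13 without replicate 1 of 24 h. In bulk tissue, fewer cells of a type and less RNA per cell cannot be told apart.

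Ube2c, the ubiquitin-conjugating enzyme of the anaphase-promoting complex, read 8.95, 9.10, 9.44 and 9.17 at 6 h and 7.84, 6.47, 6.23 and 7.65 at 24 h. Replicates 2 and 3 of 24 h were the lowest, and the groups were separated by more than 1 log2 unit. It fell by 2.12 ± 0.44 (SE; 4.34-fold; limma adjusted p = 0.0366), a call lost without any 1 array of 6 h or replicate 2 or 3 of 24 h (adjusted p 0.0779 to 0.1338). Cdc20, which activates the same complex, read 9.26, 9.29, 9.43 and 9.43 at 6 h and 8.40, 7.59, 6.97 and 8.50 at 24 h. The order of the 24 h arrays was similar, with replicates 2 and 3 lowest, and it fell by 1.49 ± 0.28 (adjusted p = 0.0170), above the threshold without replicate 2 or 5 of 6 h or 2 or 3 of 24 h (0.0618 to 0.0769). The 0 h means of both genes lay near those of 6 h, at 8.81 ± 0.94 for Ube2c and 9.27 ± 0.46 for Cdc20 (SD, n = 5).

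Proteins of the centromere and the spindle followed. Cenpa, the histone H3 variant of centromeres, read 6.71, 6.61, 6.99 and 6.73 at 6 h against 5.16, 4.23, 4.27 and 5.52 at 24 h. The 24 h values split into a lower pair, replicates 2 and 3, and a higher pair, and none reached the 6 h group; Cenpa fell by 1.96 ± 0.33 (adjusted p = 0.0068). Cenpf, a kinetochore protein, fell by 1.76 ± 0.35 (adjusted p = 0.0236), from between 6.61 and 6.79 to between 3.95 and 5.72. Nusap1, which bundles spindle microtubules, fell by 1.89 ± 0.37, and Aspm, a protein of spindle poles, by 1.78 ± 0.35 (adjusted p = 0.0204 and 0.0238). Kif23, a kinesin of cytokinesis, fell by 1.24 and Pttg1, the securin that holds sister chromatids together, by 1.07 (adjusted p = 0.0366 and 0.0088).

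Outside the list, 2 further called genes, Ckap2 and Bora, are known to act in mitosis. Ckap2, a spindle protein, fell by 1.73 ± 0.30 (adjusted p = 0.0093), from 7.75, 7.77, 8.19 and 8.15 to 6.60, 5.71, 6.02 and 6.63, and its 0 h mean was 6.56 ± 0.64. Bora, a cofactor that helps Aurora A activate Plk1 at mitotic entry, fell by 1.19 ± 0.26 (adjusted p = 0.0442). This call was lost whichever of the 8 arrays was left out (limma adjusted p 0.0513 to 0.1759). The second probe set of Bora differed by -0.43 with no call. Arhgef39, named as a guanine nucleotide exchange factor, also fell by 0.70 with 24 h values within 5.97 and 6.09. The other 27 tested mitosis genes missed the threshold, among them Mki67, the common marker of cycling cells, at 8.74, 8.75, 8.62 and 9.14 against 8.39, 7.48, 7.09 and 8.25 (difference -1.01 ± 0.31, adjusted p = 0.2165), and Plk1 (-1.46), Aurka (-1.69) and Ccnb2 (-1.59).

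All 8 called mitosis genes had a promoter sequence. The CHR is the element through which the repressor complex of G2 and mitosis genes binds. Its letters lay within 250 bases before the gene start in 2 of the 8, Ube2c and Cdc20. That share is near the 19.6% of all promoters, and binding was not tested. The stretches below are shown because both genes fell and hold the motif. They are from RefSeq's promoters on GRCm38.p6, 60 bases each, 5′ to 3′ on the strand of the gene, with the CHR in capitals. Ube2c lies at chr2:164769869-164769928 on the plus strand and Cdc20 at chr4:118437344-118437403 on the minus strand.
Ube2c: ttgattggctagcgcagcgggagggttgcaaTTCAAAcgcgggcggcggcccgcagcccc
Cdc20: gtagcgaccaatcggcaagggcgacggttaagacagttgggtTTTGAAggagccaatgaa

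The motif was searched as TTTGAA or TTCGAA on either strand. It was found in 12 of 29 promoters of the mitosis list (41.4%) and in 5284 of 27025 promoters in all (19.6%). CCAAT, searched on either strand, was found in 23 of 29 (79.3%) against 37.5% of all. These counts describe letters in a window and carry no test.

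DNA replication and S phase genes were not called in either direction (0 of 38), and 31 of the 38 had a difference above 0, with a median of 0.32 (0.54 without replicates 2 and 3 of 24 h). In 4 of them (Mcm5, Mcm6, Ccne2 and Tcf19) all 4 values of 24 h lay above all 4 of 6 h, a share of the list above the 2.84% of all genes. Mcm6, a subunit of the replicative helicase, read 6.23, 6.10, 6.53 and 6.39 at 6 h and 7.72, 7.20, 7.20 and 7.79 at 24 h. Replicates 1 and 5 of 24 h were the higher pair, and at 0 h the mean was 8.26 ± 0.91 (SD, n = 5). The difference of 1.16 ± 0.35 did not pass (adjusted p = 0.1930), though with array weights Mcm6 was called. The stretch of its promoter nearest the start with an E2F motif is printed for comparison with the CHR promoters (chr1:128359718-128359777, minus strand, GRCm38.p6, RefSeq; motif in capitals).
Mcm6: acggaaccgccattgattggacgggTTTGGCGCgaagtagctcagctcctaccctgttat

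E2F letters (TTTCCCGC, TTTGGCGC, TTTCGCGC or TTTGCCGC, either strand) were in 8 of 32 promoters of this list (25%) and in 2.16% of all promoters. In the mitosis list they were in 1 of 29.

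Transcripts of the exocrine pancreas were highest in the same 2 arrays in which the mitosis genes were lowest. Cela3b, a pancreatic elastase, read 2.87, 5.53, 2.81 and 3.02 at 6 h and 2.72, 11.35, 11.32 and 2.65 at 24 h. The exocrine pancreas list (17 tested) had a mean of 7.32 and 8.39 in replicates 2 and 3 of 24 h and between 4.63 and 5.23 in the other 6 arrays. Ctrb1 and Cpa1 were at the floor in 5 of those 6 arrays, all but replicate 2 of 6 h. The mitosis list had its lowest means in replicates 3 and 2 of 24 h, 4.24 and 4.62, against 5.46 and 5.39 in replicates 1 and 5 and 6.00 to 6.29 at 6 h. Without both arrays the mitosis list's median was -0.65. Whether these transcripts have a part in the mitosis result was not tested. Squamous epithelium genes split the 24 h arrays the other way. Their mean was 5.02 and 5.19 in replicates 1 and 5 and 3.79 and 3.70 in replicates 2 and 3, against 3.86 to 5.30 at 6 h. The part of squamous transcripts in the mitosis result was not tested either. Skeletal muscle genes had a mean of 5.33 in replicate 1 of 24 h and 3.24 to 3.42 in the other 3 arrays of 24 h, against 3.27 to 5.18 at 6 h.

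**Figure D2:**
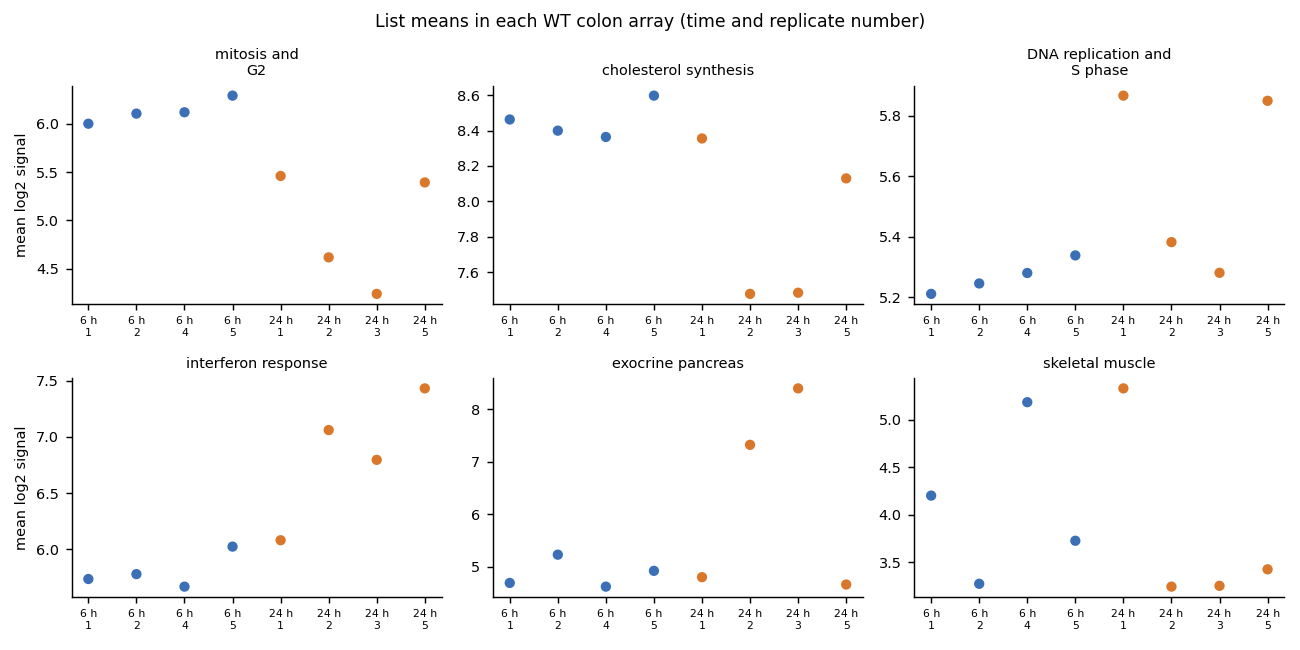
Mean log2 signal (y axis) of the tested members of 6 gene lists in each WT colon array, labelled by time and replicate number on the x axis (blue 6 h, orange 24 h). Replicates 2 and 3 of 24 h have the lowest mitosis and cholesterol means and the highest exocrine pancreas means, 7.32 and 8.39; y axes do not start at 0.

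Genes of cholesterol synthesis showed the same split between arrays. None of 20 was called; all 20 had a difference below 0, with a median of -0.65, and 6 (Idi1, Fdps, Fdft1, Lss, Insig1 and Msmo1) had non-overlapping groups, against 3.33% of all genes. Fdps, which makes farnesyl diphosphate, read 8.39, 8.50, 8.51 and 8.62 at 6 h and 8.20, 6.48, 6.90 and 7.81 at 24 h. Replicates 2 and 3 of 24 h were again lowest, and the difference of -1.16 ± 0.32 did not pass (adjusted p = 0.1519). Without those 2 arrays the list's median was -0.26. With array weights 9 of the 20 were called lower, as were 9 without replicate 1 of 24 h; Fdps was among them both times.

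Of 29 tested members of the p53 target list used here, 1 was called lower, Ckap2, whose known work is in the spindle. Of the 29, 9 had all values of 24 h below those of 6 h, against 3.33% of all genes. The median was -0.19; it was -0.12 without replicate 1 of 24 h, -0.30 without replicate 3 and -0.35 without replicates 2 and 3. Cdkn1a, the p21 inhibitor of cyclin-dependent kinases, read 11.54, 11.90, 11.77 and 11.67 at 6 h and 11.57, 11.67, 11.62 and 11.51 at 24 h. The groups overlapped (difference -0.13 ± 0.14, adjusted p = 0.9177), and the 0 h mean was 10.40 ± 0.17. Ccng1, a cyclin induced by p53, read 12.67, 12.47, 12.76 and 12.56 against 12.08, 11.92, 12.10 and 11.92, and Bbc3, the apoptosis activator Puma, 6.41, 6.24, 6.50 and 6.49 against 5.71, 5.36, 5.70 and 5.59. Both had separate groups, and neither passed (adjusted p = 0.6443 and 0.2794). The SD of Ccng1 was 0.12 at 6 h and 0.10 at 24 h in WT, and 0.46 at 6 h in KO. Its SE in the fit of all 28 colon arrays was 0.33. When only the 8 arrays of this comparison were fitted, 5 p53 targets were called lower: Ccng1 and Bbc3 (adjusted p = 0.0467 each), Ckap2, Dglucy and Ei24. In the 13 WT arrays 2 were called, Ccng1 and Ei24, and without replicates 2 and 3 of 24 h 0 were. Eda2r averaged 6.42 at 6 h and 5.77 at 24 h against 2.71 at 0 h, and Phlda3 averaged 8.50, 7.97 and 5.66 in the same order. Mdm2, the ubiquitin ligase of p53, had overlapping groups (difference -0.25 ± 0.14).

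Mt2, a metallothionein that binds zinc and copper, fell by 1.65 ± 0.31 (adjusted p = 0.0173, and 0.0942 without replicate 2 of 6 h), from 10.70, 11.32, 10.73 and 10.51 to 8.79, 9.497, 9.23 and 9.15. The 6 h array of replicate 2 was the highest, and at 0 h the mean was 7.78 ± 0.74. Its relative Mt1 read 12.30, 12.91, 12.37 and 12.33 against 11.12, 11.92, 11.60 and 11.41, with separate groups but no call (adjusted p = 0.1314). 1700007K13Rik, a called gene outside the lists, fell by 2.09 ± 0.29 (limma adjusted p = 7.6e-04), from a mean of 4.52 to 2.43. At 0 h all its values were at the floor. It differed by -1.32 in KO colon and -0.68 in WT jejunum (limma adjusted p = 0.0132 and 0.0076).

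Tert, the reverse transcriptase subunit of telomerase, read 5.30, 4.998, 5.47 and 5.05 at 6 h and 4.24, 4.05, 3.96 and 3.93 at 24 h, and it averaged 3.58 ± 0.18 at 0 h. The spread within each group was small and it fell by 1.16 ± 0.16 (adjusted p = 7e-04), and its second probe set was near the floor, at 2.29 and 2.31, with no call and the opposite sign. Among the 22 crypt stem cell and Wnt markers tested it was the only one called; with array weights Ascl2, Cdca7 and Myc were called higher. Ascl2, a transcription factor of crypt stem cells, read 3.11, 3.47, 3.76 and 3.05 against 4.68, 3.91, 4.10 and 4.24 (difference 0.89 ± 0.25, adjusted p = 0.1519), and Lgr5, a receptor that marks these cells, lay between 2.61 and 2.71 in 7 of the 8 arrays.

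C1qtnf3, a secreted protein of the C1q and TNF related family, fell by 1.72 ± 0.25 (adjusted p = 0.0011), from 6.53, 6.00, 6.47 and 6.30 to 4.18, 5.01, 4.31 and 4.94. The fibroblast and matrix list pointed the same way without a call: 23 of 25 differences were below 0, 13 had all values of 24 h below those of 6 h (3.33% of all genes did), and the median was -0.36. Col1a1, a chain of type I collagen, read 9.66, 9.95, 9.47 and 9.76 at 6 h and 8.64, 8.62, 8.85 and 8.82 at 24 h, narrow groups with a wide gap (difference -0.98 ± 0.23, adjusted p = 0.0743). Lox, which crosslinks collagen, had a difference of -1.16 ± 0.30 (adjusted p = 0.1215). Here replicates 2 and 3 of 24 h did not stand apart, and the median without them was -0.38. In the 8 arrays alone 3 members were called lower (Col1a1, Col5a2 and Sparc), and with array weights 6.

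Among the genes that rose, Per2, a repressor of the circadian clock, had the widest difference. It read 3.05, 2.45, 4.18 and 3.88 at 6 h and 5.99, 6.57, 8.27 and 7.30 at 24 h, 3.64 ± 0.76 higher (12.5-fold; adjusted p = 0.0366), and its 0 h mean of 5.53 ± 1.33 lay between. The lowest array of 24 h was above the highest of 6 h, though arrays of the same time were spread widely. The call was lost without replicate 1, 2 or 5 of 6 h or 2, 3 or 5 of 24 h (adjusted p 0.0675 to 0.1388). Of the 15 core clock genes tested it was the only one called; in the 8 arrays alone Per2 missed the threshold, while Cry1 was called higher and Nr1d1 lower. Cry1, another repressor, read 7.20, 7.002, 7.13 and 6.93 against 8.05, 8.19, 7.83 and 7.89 (difference 0.92 ± 0.27, adjusted p = 0.1776), and Nr1d1, which represses the activator Arntl, read 4.92, 5.04, 5.15 and 5.14 against 4.02, 3.32, 3.79 and 3.67 (difference -1.36 ± 0.62, adjusted p = 0.5010). Arntl itself overlapped, with replicate 3 of 24 h lowest at 6.19.

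The output genes of the clock, which include the PAR bZIP transcription factors, were not called (0 of 11). All 11 differences were above 0, with a median of 1.00, and 7 had separate groups against 2.84% of all genes. Hlf read 3.63, 3.40, 3.21 and 3.21 against 4.75, 5.11, 5.23 and 4.75, and Tef 5.31, 5.66, 6.34 and 5.87 against 6.92, 6.93, 8.17 and 7.54. Both are PAR bZIP factors, and in both every array of 24 h was higher (adjusted p = 0.1525 and 0.4380). In the 8 arrays alone Hlf and Tspan4 of this list were called higher. The hour of harvest may differ between the times, and its part in these values was not tested. Per2 has no promoter entry in the table used; the E-box, the site of the clock activators, is shown in Cry1 (CACGTG, chr10:85185080-85185139, minus strand, GRCm38.p6, RefSeq). It was in 3 of 12 promoters of the core clock list (25%) and 6.86% of all.
Cry1: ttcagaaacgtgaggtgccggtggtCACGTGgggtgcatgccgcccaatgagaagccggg

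**Figure D3:**
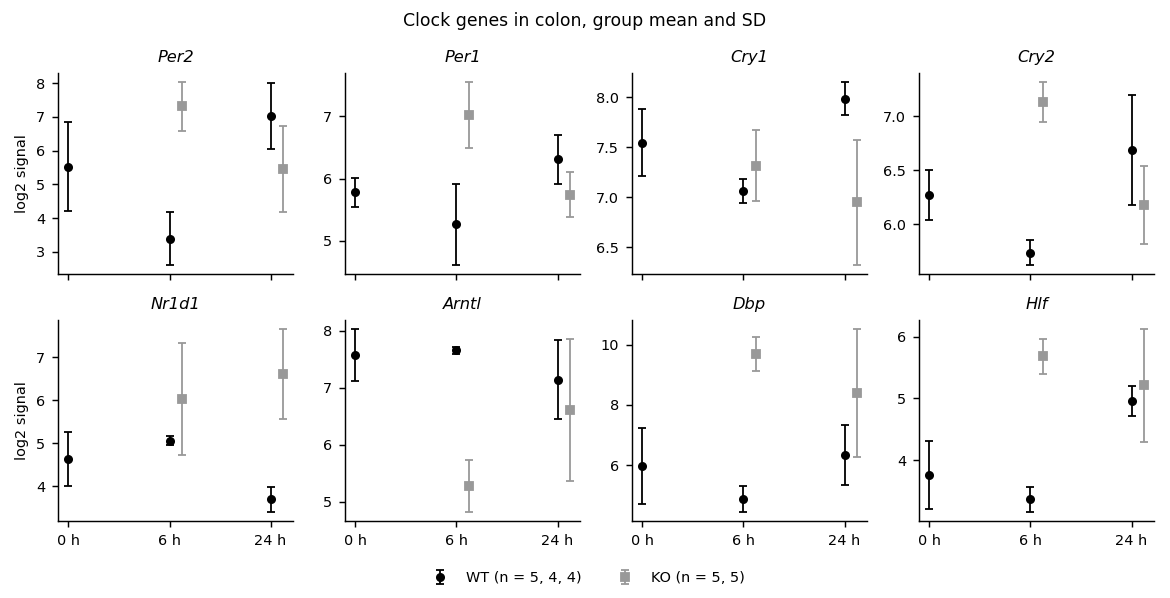
Log2 signal (y axis) of 8 clock genes in colon, as group mean with SD bars, for WT at 0 h, 6 h and 24 h (black circles) and Tweak_KO (KO, grey squares) at 6 h and 24 h; times on the x axis are categories, not to scale. Per2 averaged 3.39 and 7.03 in WT at 6 h and 24 h, and 7.31 and 5.47 in KO.

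Interferon response genes included 1 called member, Rsad2, an antiviral enzyme also named viperin. It read 6.02, 6.10, 5.77 and 6.50 at 6 h and 6.91, 7.78, 7.57 and 7.53 at 24 h, 1.35 ± 0.29 higher (2.55-fold; adjusted p = 0.0417), with a 0 h mean of 6.46 ± 0.12. The call was lost when any one of 7 of the 8 arrays was left out, all but replicate 1 of 24 h, with adjusted p of 0.0612 to 0.1452. Without replicate 1 of 24 h 9 members were called higher, and 12 were with array weights, 3 without replicate 2 of WT 0 h and replicate 3 of KO 0 h, and 0 in the 8 arrays alone. Of the 30 tested members, 29 had a difference above 0, the median was 0.93, and 10 had separate groups against 2.84% of all genes. Ifit3, which binds viral RNA together with its relatives, read 4.29, 4.70, 4.52 and 5.18 against 5.73, 6.78, 6.59 and 6.31 (difference 1.68 ± 0.41, adjusted p = 0.0859). Ifit2 read 6.00, 5.66, 5.90 and 6.25 against 6.50, 7.92, 7.89 and 8.67, with replicate 1 of 24 h nearest to the 6 h group. The guanylate-binding and immunity-related GTPases spread more: Iigp1 averaged 4.91 ± 0.41 at 6 h and 7.22 ± 1.29 at 24 h (SD, n = 4), and Cxcl9, a chemokine induced by interferon gamma, was at its lowest value in all 4 arrays of 6 h and at 5.81 in replicate 5 of 24 h, with 3.01 the next highest. MHC class I genes, which respond to the same cytokines, had a list mean of 9.60 in that array and 8.42 to 8.71 in the other 3 of 24 h.

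The interferon-stimulated response element was searched as GAAA, any 2 bases and GAAA, on either strand, a motif added after the data were seen. It was in 12 of 21 promoters of the list (57.1%) and in 3.46% of all. The stretches of Rsad2 (chr12:26456538-26456597, minus strand) and Ifit3 (chr19:34583348-34583407, plus strand) are shown from RefSeq on GRCm38.p6, with the motif in capitals.
Rsad2: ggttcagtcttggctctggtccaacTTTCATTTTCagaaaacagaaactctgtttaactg
Ifit3: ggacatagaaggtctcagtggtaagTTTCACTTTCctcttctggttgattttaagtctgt

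Other genes that rose belonged to none of the groups above. Il22ra1, a subunit of the receptor for the epithelial repair cytokine IL-22, read 6.31, 6.62, 6.24 and 6.14 at 6 h and 6.85, 7.21, 7.33 and 7.09 at 24 h. It was 0.79 ± 0.17 higher (adjusted p = 0.0366), with a 0 h mean of 6.40; the call was lost without any 1 of 6 arrays, all but replicate 2 of 6 h and 1 of 24 h (adjusted p 0.0785 to 0.1335). Idh1, the cytosolic isocitrate dehydrogenase that makes NADPH, read 10.54, 10.46, 10.60 and 10.56 against 10.99, 11.23, 11.01 and 11.17, a small rise of 0.56 ± 0.10 with tight groups (adjusted p = 0.0120, and 0.0658 and 0.0514 without replicate 2 of 6 h and of 24 h). Rdh10, a retinol dehydrogenase, was 0.65 higher and Klf10, a zinc finger factor induced by TGF-beta, 0.61 higher (adjusted p = 0.0446 and 0.0366). Fam102a was 0.66 higher (adjusted p = 0.0456). Of the 8 fits with 1 array left out, Rdh10 and Fam102a each kept the call in 1 and Klf10 in 3.

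Other rises started at low signal. Ly6m, of the Ly6 family of surface proteins, read 4.09, 2.91, 3.84 and 3.24 at 6 h and 4.51, 6.36, 5.49 and 5.61 at 24 h (1.97 ± 0.38 higher, adjusted p = 0.0173), and averaged 4.76 at 0 h. Apod, a lipid carrier of the lipocalin family, was within 0.05 of the floor in all 4 arrays of 6 h and read 3.43, 4.09, 4.43 and 4.10 at 24 h (limma adjusted p = 5.8e-05). Iyd, which recovers iodide from iodotyrosines, was 1.30 ± 0.20 higher (adjusted p = 0.0025), and B3galt2, a galactosyltransferase, 0.88 ± 0.19 higher from near the floor (adjusted p = 0.0369). Camk2n2, an inhibitor of CaM kinase II, was 0.48 higher. Gm1976, Ptpn5 and Zfp202 were also called, with 6 h means of 2.32, 2.28 and 2.39, at or near the floor. They were 0.53, 0.25 and 0.24 higher at 24 h, and the SD of Ptpn5 at 6 h was 0. Among genes whose 6 h signal is at the floor, the size of a rise is not well measured.

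Fatty acid oxidation and ketogenesis genes were not called (0 of 23), with 20 differences above 0, a median of 0.37 (0.17 without replicate 2 of 24 h, 0.24 without replicates 2 and 3) and 8 members with all values of 24 h above those of 6 h (2.84% of all genes were), among them Cpt1a, Acadl, Eci2, Pdk4 and Angptl4. Angptl4, a secreted inhibitor of lipoprotein lipase, read 3.80, 4.33, 4.41 and 3.39 against 5.10, 6.86, 4.84 and 5.50 (difference 1.60 ± 0.48, adjusted p = 0.1930). B cell markers had a median of -0.20 with 15 of 18 differences below 0 (-0.01 without replicate 5 of 6 h), and the lists of T cells (0.03), plasma cells (-0.02), endothelium (-0.01), goblet cells (0.01) and smooth muscle (-0.06) had medians near 0. None of these lists had a called member, though with array weights Acadl and Angptl4 were called higher and Pou2af1, of the B cell and plasma cell lists, lower.

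**Figure D4:**
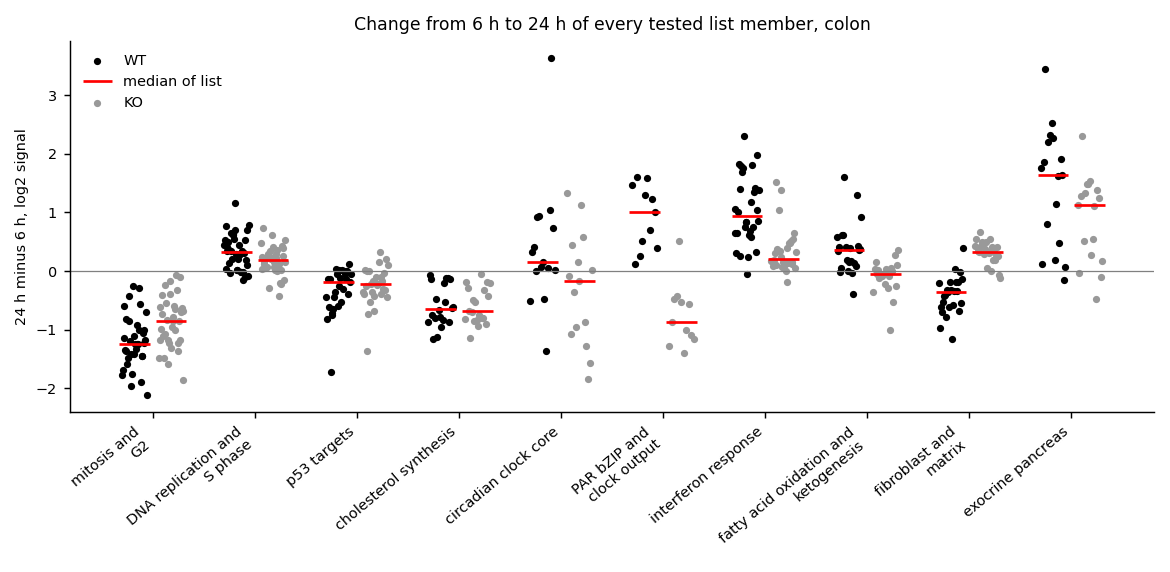
Difference of 24 h minus 6 h in log2 signal (y axis) for every tested member of 10 gene lists (x axis) in WT (black) and Tweak_KO (KO, grey) colon, with red lines at list medians. The WT median of the mitosis list is -1.24 and that of the clock output list 1.00, against -0.86 and -0.87 in KO.

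The same contrast in Tweak_KO colon compares none of the arrays of the WT contrast. Both take their spread from the same fit of all 28 colon arrays, so their calls are not fully independent. In KO 68 genes were called higher (0.498%) and 108 lower (0.791%). Of the 18 WT falls 9 (50%), and of the 108 KO falls 8.33%, were called lower in both genotypes: Ube2c, 1700007K13Rik, Cenpa, Nusap1, Aspm, Cenpf, Ckap2, Mt2 and Cdc20. Of the 18, 17 had a KO difference below 0. Of the 15 WT rises, 0 were called higher in KO, and 9 had a KO difference above 0. The mitosis list had 9 of 35 called lower in KO with a median of -0.86, and cholesterol synthesis 6 of 20 with a median of -0.69. The exocrine pancreas list, without a call, had a median of 1.12 in KO against 1.64 in WT, and its part in these values was not tested. The largest KO differences were those of Myh8 (-4.97) and Tnnc2 (-3.89), of skeletal muscle, and Krtdap (-4.37) and Sbsn (-3.51), of squamous epithelium, and none of these was called in WT. The skeletal muscle list had 13 of 21 called lower in KO with a median of -1.86, more calls than the mitosis list. The squamous epithelium list had 1 of 22 with a median of -1.30. In WT both lists had 0 calls, with medians of -0.13 and -0.09. The part of these tissues in the KO values was not tested.

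The change itself differed between genotypes in 25 genes (0.183%), 8 with the KO change more positive and 17 with it more negative. Of the 15 core clock genes tested, 3 were in the second set, Per2, Per1 and Cry2. Per2 averaged 7.31 at 6 h and 5.47 at 24 h in KO, so that its change differed from WT by -5.49 ± 1.02 (adjusted p = 0.0231), and Per1 differed by -2.32 ± 0.43 (adjusted p = 0.0231). Kyat1, an aminotransferase of kynurenine, averaged 6.59 and 8.34 in WT and 7.81 and 6.91 in KO (difference of changes -2.65 ± 0.52, adjusted p = 0.0265). Gsta3, a glutathione transferase, differed by -2.58 ± 0.47 (adjusted p = 0.0231). Myh4, of the skeletal muscle list, was also among the 25. It was at the floor in WT at both times and averaged 3.58 at 6 h and 2.28 at 24 h in KO. The clock output list had a median of 1.00 in WT and -0.87 in KO, with 3 of 11 called lower in KO (Wee1, Nampt and Tsc22d3) and 0 of 11 with a called difference between genotypes.

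The 4 largest differences with a more positive KO change were those of matrix genes. Col1a1 averaged 9.71 at 6 h and 8.74 at 24 h in WT, and 9.62 and 10.16 in KO (difference of changes 1.52 ± 0.31, adjusted p = 0.0349). Mfap4, a microfibril protein, differed by 1.32, Col5a2 by 1.24 and Col6a3 by 1.12 (adjusted p = 0.0380, 0.0265 and 0.0178). Of the 25 fibroblast and matrix genes, 5 had a called difference between genotypes, all collagens, and the list's median was -0.36 in WT and 0.33 in KO. Of the 33 WT calls, 6 also had a called difference: Per2, Apod, Klf10, Rdh10, Fam102a and Gm1976. Of the 4 largest differences in each direction and these 6 genes, 13 in all, 12 (all but Apod) missed the threshold without replicate 2 of WT 6 h (adjusted p 0.0536 to 0.1175). Without replicate 4 of KO 24 h 11 missed it, and without replicate 1 of WT 6 h or replicate 3 of WT 24 h 10 did. The count of 25 was 2, 6, 5 and 7 in these settings, in the same order, and 8 without replicate 5 of WT 6 h. For the interferon list the medians were 0.93 in WT and 0.21 in KO, with 0 of 30 differing between genotypes. Whether the hour of harvest differed between the genotypes is not given in the labels, and its part was not tested. In the colon column names, WT arrays carry a different prefix from the matched KO arrays of 6 h and 24 h. What the prefix marks is not given. In levels set side by side, genotype and prefix cannot be told apart.

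**Figure D5:**
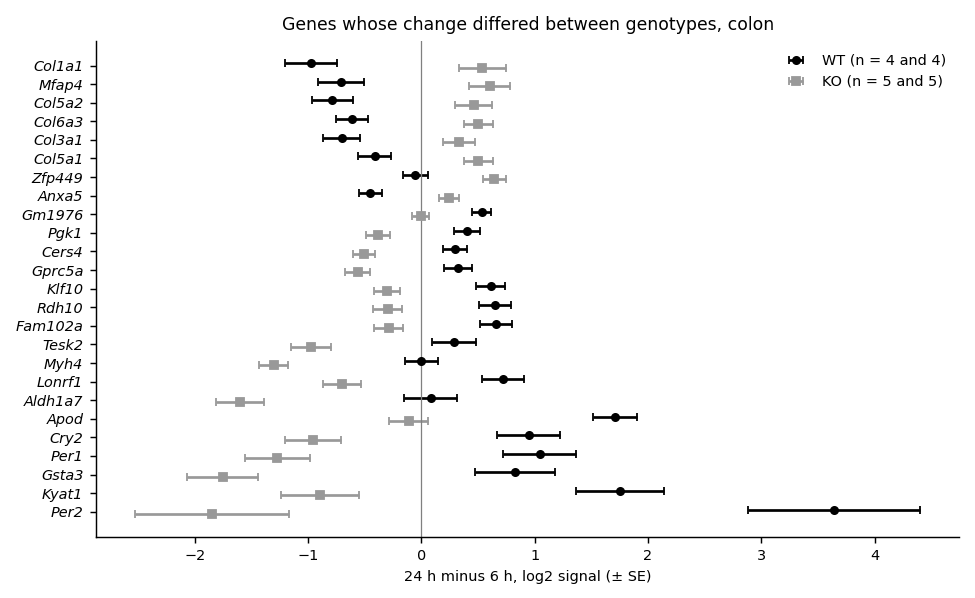
Difference of 24 h minus 6 h in log2 signal (x axis, ± SE) in WT (black, 4 and 4 mice) and Tweak_KO (KO, grey, 5 and 5 mice) colon for the 25 genes (y axis) whose change differed between genotypes. Per2 lies at 3.64 in WT and -1.85 in KO, and Col1a1 at -0.98 and 0.54.

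WT jejunum, normalized separately by the authors, is set beside colon with no test between tissues. There the mitosis list had 11 of 35 called lower, against 0.293% of the genes tested in jejunum, with a median of -0.86; Ube2c differed by -1.57 (adjusted p = 0.0083) and Nusap1 by -1.88 (adjusted p = 0.0076). Ckap2 differed by -1.22 in jejunum (adjusted p = 2e-04). Per2 differed by 1.65 (adjusted p = 0.1278), Cry1 by 1.31 (adjusted p = 0.0426) and the clock output list had a median of 0.76. The interferon list had a median of -0.36 in jejunum, where Rsad2 differed by -0.08 and Ifit3 by -0.06. Cholesterol synthesis had a median of -0.09. The exocrine pancreas list, without a call, had a median of 2.98 in jejunum, and its part in the mitosis values there was not tested.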

How the data were processed

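RNA of whole colon and jejunum was hybridised to Affymetrix mouse arrays with 45101 probe sets. The authors deposited log2 signals in 1 table per tissue. GCRMA and RMA are named per the submitters' processing notes; their versions and roles are not given in the sources used here. Of the colon columns, 27 matched a sample, 1 had no sample and was not used, and 1 sample was read from the value table of the series. Probe sets annotated to 1 gene (34958) were reduced to the brightest on average for each gene, and after the dimmest 25% were dropped 13645 genes were tested. The differences were fitted in limma 3.58.1 (R 4.3.3; lmFit, then eBayes with a mean-variance trend) over all 28 colon arrays in 6 groups, with Benjamini-Hochberg adjusted p under 0.05 as the call; jejunum was fitted the same way. The fit was tested on simulated data. The number of arrays limits the precision.

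The members and gene lists were chosen with earlier results of these data known, and list counts and medians carry no test. Named genes were the 12 largest called rises and falls with a gene name of their own, up to 5 called members of each list, a fixed set of 19, and the 4 largest called in each direction for KO and for the difference between genotypes. Other list members, 1700007K13Rik, Gm1976, Ptpn5 and Zfp202 were named after their values were seen. Same-numbered arrays showed little correlation of their deviations (in WT 0.042, 0.127 and -0.039), and the main fit did not pair them. So few pairs cannot exclude that a number marks something shared. Alternatives are given in the closing section.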

Additional observations from a re-analysis of the deposited data

Results flagged for a closer look

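In a search of 184 sets of 4 arrays (sets equal to 3 decimals were not tested), 16 held an array far from the other 3; chance marks about 1 in 20 such sets. Among named genes these were Tex12 in replicate 2 of 24 h (3.16, others 2.73 to 2.75), Iyd in replicate 3 of 24 h (5.10, others 4.34 to 4.46), Rdh10 in replicate 4 of 6 h (7.57, others 7.77 to 7.80) and B3galt2 in the same array (2.63, others 2.28 to 2.30). Lgr5 in replicate 5 of 6 h read 3.61 (others 2.71), Mt1 in replicate 2 of 6 h 12.91 (others 12.30 to 12.37), and Tnfrsf12a, the receptor of Tweak, in replicate 5 of 6 h 5.47 (others 6.11 to 6.18). Near the floor were Mybl1 in replicate 3 of 24 h (2.64, others 2.70), Gm1976 in replicate 1 of 6 h (2.44, others 2.28 to 2.29) and Apod in replicate 2 of 6 h (2.28, others 2.31 to 2.32). The mean of the smooth muscle list was 9.98 in replicate 2 of 24 h (others 10.25 to 10.28) and 10.19 in replicate 2 of 6 h (others 10.25 to 10.26). List means also stood apart at 11.67 for goblet cells in replicate 1 of 24 h (others 11.53 to 11.54), 2.63 for T cells in replicate 5 of 6 h (others 2.58 to 2.59) and 7.52 for antioxidant genes in replicate 2 of 6 h (others 7.40 to 7.42), and that of the skeletal muscle list was 5.33 in replicate 1 of 24 h (others 3.24 to 3.42).

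The change from 6 h to 24 h differed between genotypes (KO minus WT, limma) by -5.49 in Per2, -2.65 in Kyat1, -2.58 in Gsta3, -2.32 in Per1 and -1.82 in Apod. It differed by -0.94 in Rdh10 and in Fam102a, -0.91 in Klf10 and -0.54 in Gm1976. Among matrix genes it differed by 1.52 in Col1a1, 1.32 in Mfap4, 1.24 in Col5a2 and 1.12 in Col6a3. The adjusted p of these 13 lay between 0.0035 and 0.0385.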

How the results depend on the processing

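The direction of every one of the gene values recomputed (1535) was kept. For the 33 called genes, whose groups do not overlap, leaving out an array could not reverse it. Several alternatives changed only the filter or the variance and left the difference as it was. Of the values, 1081 stayed on their side of the threshold, 447 lost the call and 7 gained one. The count of 33 calls in WT was 18 in the 13 WT arrays alone, 17 over every probe set, 20 with no filter, 233 with array weights, 19 without replicates 2 and 3 of 24 h together, and 30 in the 8 arrays alone, where 11 of the 33 were called. Leaving out 1 array gave 11 (without replicate 2 of 6 h) to 98 (without replicate 1 of 24 h). Mitosis calls, 8 in the report, numbered 0 in the 8 arrays alone and in the 13, 17 with array weights, and 2 to 13 with 1 array left out. Of the 33 calls, 5 (1700007K13Rik, C1qtnf3, Tert, Arhgef39 and Apod) held in every alternative that tested them. Of 30 further probe sets of called genes, 23 had the same sign (1 of them called), 6 had a difference of 0 to 4 decimals and 1, of Tert, the opposite sign. The KO count of 176 was 87 with no filter, 511 with array weights and 64 to 181 with 1 array left out, and 215 without replicate 2 of WT 0 h and replicate 3 of KO 0 h; the count of 25 differences between genotypes was 12, 60 and 2 to 30. The causes were not tested.

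With the replicate number as a block, 10 genes were called in WT (2 higher, 8 lower), all among the 33 and none of the mitosis list. In KO 114 were called, and 2 differed between genotypes. The titles do not say what the numbers mark, and the low correlation of same-numbered arrays cannot settle it.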
